A study of Homo sapiens with 14 samples.

Results

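The nuclear-encoded respiratory chain genes were taken by name, as symbols that begin with NDUFA, NDUFB, NDUFC, NDUFS, NDUFV, UQCR or ATP5, as COX followed by a digit from 4 to 8 and a letter, or as SDHA to SDHD. These prefixes matched 103 of the 28307 gene symbols, and 96 remained after 7 pseudogene, antisense and readthrough symbols (among them UQCRBP1, NDUFB2-AS1 and NDUFC2-KCTD14) had been left out. No measured value entered the name rule, although the members were chosen with earlier results of these data known. Their RNA levels were read in A375, a human melanoma cell line, by polyA-selected stranded RNA-seq in 14 libraries of 5 groups. The gene edited in the study was ZC3H18 (Z18), which encodes a zinc-finger protein that works with the nuclear RNA surveillance machinery. Bulk CRISPR populations (n = 3, labelled as knockout) had been transiently transfected with a Cas9 vector carrying a Z18 guide RNA, and bulk control populations (n = 3) with the empty vector, both under antibiotic selection. Single-cell clones came from limiting dilution of transfected and selected cells. They carried 1 normal Z18 copy beside a truncating allele (trunc/+, n = 3), 1 normal copy beside a lost one (-/+, n = 3), or were wild type and had received no guide (WT, n = 2). Per the study's methods, 1 of the trunc/+ clones was made by homology-directed repair and the other two carry other truncating alleles, and the -/+ clones were made with other guide RNAs. Each clone was 1 library, and a bulk CRISPR library is a mixture of edited and unedited cells, in which fewer cells of a kind and less RNA per cell cannot be told apart.

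The respiratory chain passes electrons from NADH and succinate through complexes I, II, III and IV to oxygen, and pumps protons across the inner mitochondrial membrane, which complex V (ATP synthase) uses to make ATP. Complexes I, III, IV and V are built from subunits of both genomes. The mitochondrial DNA encodes a few membrane-embedded core subunits, whereas the nucleus encodes the other subunits, all of complex II and the assembly factors. In melanoma cells, the coactivator PGC1A is known to raise oxidative phosphorylation in a subset of lines, and the transcription factors NRF1, YY1, GABP (of the ETS family) and ERRA are known to bind promoters of these genes.

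Promoter stretches are shown because several members share binding motifs of these known regulators. RefSeq gave a window of 250 bases before to 50 bases after the start site (GRCh38.p14) for 79 of the 96 members and for 18421 genes of the files. Both strands were searched for exact matches. The NRF1 motif, the 10-base palindrome in capitals in the first set of lines, lay in the window of 5 members (6.33%, against 1.82% of all genes), the YY1 motif AAGATGGCG in 10 (12.7%, against 2.85%), the ETS motif CCGGAAG in 23 (29.1%, against 15.0%) and the ERR motif AAGGTCA in 11 (13.9%, against 4.50%). A match describes the letters of the window and not a bound site, and 38 members had at least 1 of the motifs, which may overlap each other. The 5 members with the NRF1 motif are printed below as 30-base stretches, 5′ to 3′ on the strand of the gene, with the motif in capitals. They lie at chr10:7788145-7788174 (ATP5F1C, plus strand), chr9:122159764-122159793 (NDUFA8, minus), chr20:13785014-13785043 (NDUFAF5, plus), chr3:120596167-120596196 (NDUFB4, plus) and chr11:112086753-112086782 (SDHD, plus).
ATP5F1C: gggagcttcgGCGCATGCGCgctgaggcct
NDUFA8: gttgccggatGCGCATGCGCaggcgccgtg
NDUFAF5: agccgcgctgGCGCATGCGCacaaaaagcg
NDUFB4: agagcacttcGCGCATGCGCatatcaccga
SDHD: agctgtgtttGCGCATGCGCgacgggtgtg

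Of the 10 members with the YY1 motif, the 2 highest and the 2 lowest in the bulk comparison described below are printed. UQCRC1 (chr3:48609604-48609633, minus strand) and ATP5PF (chr21:25735092-25735121, minus) had positive log2 fold changes there. NDUFA7 (chr19:8321342-8321371, minus) and NDUFAF8 (chr17:81239317-81239346, plus) had negative ones. The 9-base motif is again in capitals, and the strand and build are as above.
UQCRC1: ctgcagctggAAGATGGCGgcgtccgtggt
ATP5PF: aggcgaagaaAAGATGGCGgaggctgtgcc
NDUFA7: tcgcggacggAAGATGGCGtccgccacccg
NDUFAF8: ggacggacctAAGATGGCGgcctccagggg

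Levels are given in FPKM (fragments per kilobase of transcript, scaled to the library's mapped fragments). Of the 96 members, 90 reached 1 FPKM in enough libraries to be tested in every comparison. The 6 others were COX4I2, a form of COX4 known from lung and low oxygen (at most 0.0912 FPKM), the muscle forms COX6A2 and COX7A1 and the testis form COX8C (all listed at 0 FPKM in every library), COX6B2, also known from testis (at most 0.497 FPKM), and ATP5MGL (at most 0.302 FPKM). Their widely expressed counterparts were abundant, with medians over the 14 libraries of 197 FPKM for COX4I1, 427 FPKM for COX6A1, 325 FPKM for COX6B1, 182 FPKM for COX7A2 and 337 FPKM for COX8A. Among paralogues detected side by side, COX7B (46.8 FPKM) exceeded COX7B2 (17.0 FPKM), NDUFA4 (63.7 FPKM) exceeded NDUFA4L2 (1.22 FPKM), and UQCRH (813 FPKM) exceeded UQCRHL (6.94 FPKM). UQCRH and UQCRHL are near-identical in sequence, so how reads were divided between them is uncertain. The subunit c of the ATP synthase rotor is encoded by ATP5MC2 (349.7 FPKM), ATP5MC1 (97.1 FPKM) and ATP5MC3 (56.1 FPKM).

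Levels differed more within a complex than between complexes. Median levels of the tested members were 97.6 FPKM for the 7 core subunits of complex I, 105 FPKM for its 30 accessory subunits, 17.6 FPKM for the 8 assembly factors named NDUFAF, 97.3 FPKM for the 4 subunits of complex II, 62.9 FPKM for the 9 of complex III, 154 FPKM for 14 of complex IV and 145 FPKM for 18 of complex V. NDUFA4 and NDUFA4L2, which were first named as complex I subunits, are counted here with complex IV. Within the complex I core, the median ran from 9.15 FPKM for NDUFS1, its largest iron-sulphur subunit, to 165 FPKM for NDUFV2. Among assembly factors, NDUFAF8 (138 FPKM) stood above the others, of which NDUFAF5 was lowest (4.56 FPKM). The order of the 90 members was shared between libraries. The Spearman correlation of a library's levels with the median of the other 13 libraries lay between 0.97 and 0.99 in 12 libraries, and was 0.92 in bulk control 2 and 0.86 in bulk control 3. This is a description across genes of 1 library, which are not independent replicates.

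**Figure D1:**
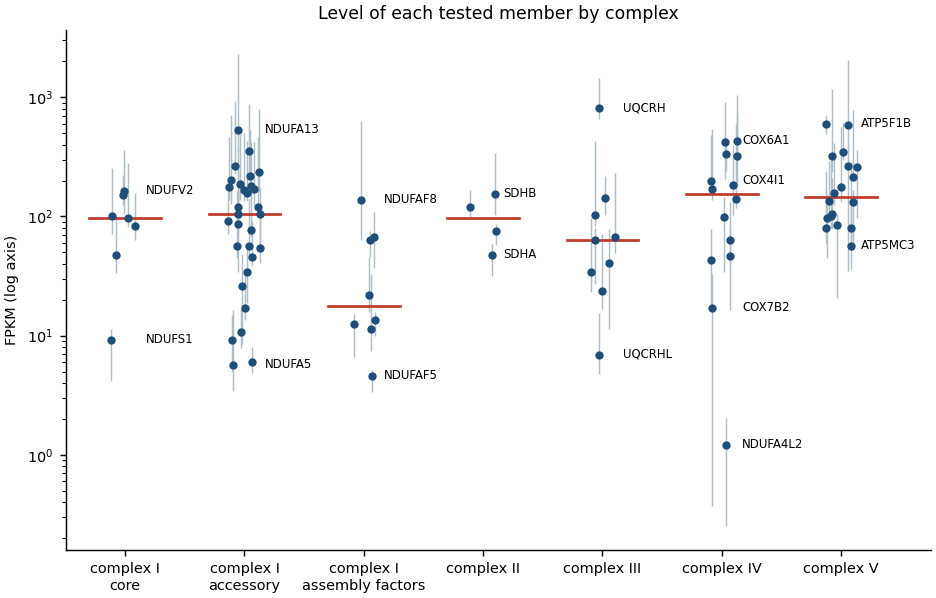
Level of each of the 90 tested members in FPKM (log axis), grouped by complex. Points are medians over 14 libraries, grey lines run from the lowest to the highest library and red bars are the medians of the complexes, from 17.6 FPKM for the complex I assembly factors to 154 FPKM for complex IV.

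Library facts that touch these values are as follows. Aligned fragments ran from 15615675 (bulk control 3) to 33018360 (trunc/+ 1), and no pair of libraries was a duplicate (highest correlation 0.988). Z18 RNA was 10.4, 11.9 and 12.8 FPKM in bulk CRISPR, against 38.1, 13.9 and 48.7 FPKM in bulk control. In clones it was 14.3, 13.98 and 8.70 FPKM in trunc/+ and 16.2, 17.1 and 16.1 FPKM in -/+, against 23.5 and 21.97 FPKM in WT. Z18 RNA was thus lower in every edited library than in every matched reference library, although no difference passed limma (adjusted p 0.176, 0.536 and 1 for the 3 comparisons in that order). Of 11 melanocyte lineage markers, 6 reached 1 FPKM in some library, with SOX10 between 10.8 and 212 FPKM, while the defining pigment cell genes MLANA and TYR were listed at 0 FPKM in all libraries. Of 7 epithelial markers, 3 reached 1 FPKM, all of them keratins, and EPCAM and CDH1 stayed at or below 0.353 FPKM. Of the 8 fibroblast markers 4 reached 1 FPKM in some library, and of the 7 haematopoietic markers only CD74 did.

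The bulk comparison asked how these genes stood after editing of Z18 in a mixed population. No member passed the test. The edited libraries resembled each other, whereas the control libraries lay on both sides of them. The values of members were summed per library to show this. The 96 members together held 16524, 15023 and 14272.5 FPKM in bulk CRISPR, against 16902, 30878 and 13986 FPKM in bulk control. They made up 2.99% to 3.23% of all FPKM in bulk CRISPR, and 3.11% to 4.81% in bulk control, with the highest share in control 2. The median SD of a member between replicates, on the log2(FPKM + 1) scale, was 0.13 in bulk CRISPR and 0.67 in bulk control, compared with 0.14 and 0.43 over all genes.

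Read library by library against the mean of the 3 bulk CRISPR libraries, the median member lay 0.14 higher in control 1, 0.91 higher in control 2 and 0.37 lower in control 3 on the log2 scale (−0.37). Control 2 was the highest of the 6 bulk libraries for 70 of 90 members, and control 3 was the lowest for 53. Control 1 was within 0.5 of the CRISPR mean for 85 members, control 2 for 28 and control 3 for 39. The most frequent arrangement, in 46 members, had control 2 above and control 3 below the edited libraries. Both lay above them in 30 members and both below in 13, and NDUFS1 alone had the reverse order. Median GC content of the transcripts was 46.7% in the 46 members and 52.2% in the 30. All these counts were made for members only, and whether they differ from those of all genes or of other short genes was not tested.

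In control 2 the members, the ribosomal protein genes and all short transcripts had similar median deviations, and in control 3 these medians spread more widely. The members have a median transcript length of 783.5 bases and 4 exons, compared with 3325 bases and 9 exons over all expressed genes, and 53 of 90 are under 1000 bases. As deviations from each gene's mean over the 14 libraries, the median in control 2 was 1.04 for members, 1.08 for cytosolic ribosomal protein genes and 0.92 for all genes under 1000 bases, and −0.34 over all genes. In control 3 the medians were −0.22 for members, −0.68 for ribosomal protein genes, −0.06 for short genes and −0.13 for all genes. Across 10967 genes the deviation in control 2 correlated with the logarithm of transcript length at r = −0.60, and the deviation in control 3 with GC content at r = 0.51, which describes genes within single libraries. The summed levels of melanocyte lineage markers overlapped between the groups, at 54.5 to 63.7 FPKM in bulk CRISPR and 29.9 to 63.1 FPKM in bulk control. Those of the other marker lists separated the groups. Epithelial markers were at 414 to 539 FPKM in bulk CRISPR and 715 to 1109 FPKM in bulk control (2 of the 3 tested keratins were called lower by limma). Fibroblast markers summed to 7.59 to 9.06 FPKM in bulk CRISPR and 2.61 to 3.36 FPKM in bulk control, and haematopoietic markers, of which only CD74 reached 1 FPKM, to 157 to 172 FPKM in bulk CRISPR and 37.8 to 82.3 FPKM in bulk control. A bulk fit corrected for length and GC content, chosen after seeing the data, called NDUFC2 lower and NDUFA12 higher. Its count over all genes is given with the other settings at the end. How much of the members' values goes with transcript length, GC content or these markers was not tested.

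**Figure D2:**
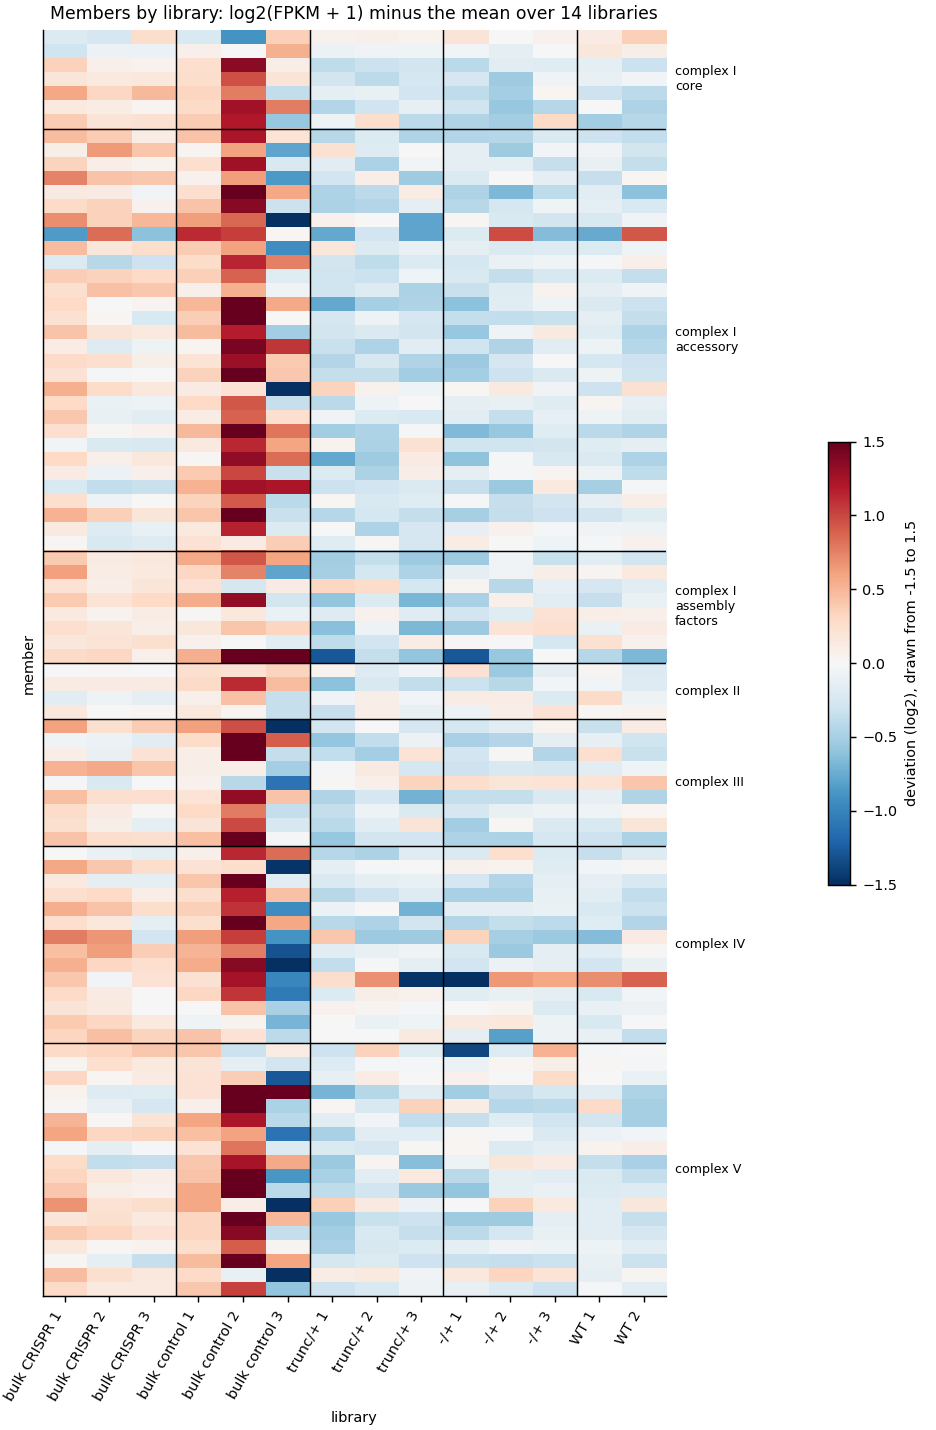
Deviation of each of the 90 tested members (rows, unlabelled, by complex) from its own mean over 14 libraries (columns), on the log2(FPKM + 1) scale. Bulk control 2 is above the mean for most members (median 1.04), bulk control 3 is mixed (median −0.22), and the 8 clones lie between medians of −0.29 and −0.13.

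**Figure D3:**
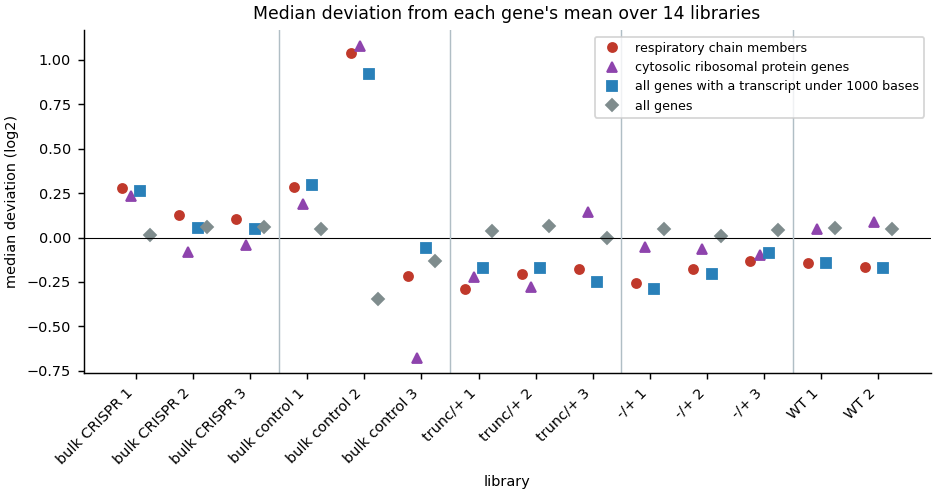
Median deviation from each gene's mean (log2) in each library, for the respiratory chain members, cytosolic ribosomal protein genes, all genes with a transcript under 1000 bases and all genes. In bulk control 2 the first 3 sets lie between 0.92 and 1.08, while all genes lie at −0.34.

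With limma on log2(FPKM + 1) and Benjamini-Hochberg adjustment over all 12114 genes tested, 0 of 90 members were called between bulk CRISPR and bulk control at an adjusted p of 0.05, where 0.347% of all genes were called. At an unadjusted p under 0.05 there was 1 member higher (14% of all genes) and 13 lower (6.93% of all genes). The median log2 fold change of members was −0.24, compared with 0.18 over all genes, and 58 members were below 0 (64.4%, where 35.3% of all genes were). Over the 673 tested genes with a transcript under 1000 bases, the median was −0.26 and 459 were below 0. Of these short genes, 30 were higher and 138 lower at that unadjusted p. The 53 members under 1000 bases had a median of −0.25. The 37 longer members had −0.24, compared with 0.23 over all 10300 genes of 1000 bases or more. The 3 CRISPR libraries lay below all 3 controls for 21 members (10.4% of all genes) and above them for 3 (21.8% of all genes). The median of members rested on control 2, without which it was 0.09, compared with 0.08 for all genes, and 39 members were below 0. Without control 3 it was −0.53, with 73 members below 0.

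Without control 1, the control closest to the edited libraries, 7 members were called lower, in a fit that called 11.1% of all genes (1327). These were ATP5F1D, COX4I1, NDUFA7, NDUFAF8, NDUFB11, NDUFC2 and UQCR11. NDUFB11 overlaps the controls once control 1 is included. Removing control 2 or control 3 called 0 members, in fits that called 0.075% and 0.1% of all genes. The 95% interval of the bulk log2 fold change lay within −1 and 1 for 24 of 90 members (47.1% of all genes), and for the others it reached past a 2-fold change.

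The lowest log2 fold changes among complex I genes belonged to the accessory subunit NDUFC2 and the assembly factor NDUFAF8. NDUFC2, a subunit of the membrane arm (chr11:78068297-78079862, minus strand, hg38), had 57.2, 51.9 and 53.2 FPKM in bulk CRISPR, against 96.9, 162.5 and 158.3 FPKM in bulk control. The edited libraries lay within a few FPKM of each other and all below the lowest control. The means were 54.1 ± 2.79 FPKM in bulk CRISPR and 139 ± 36.7 FPKM in bulk control (SD, n = 3 each), a log2 fold change of −1.31 (SE 0.25, 95% interval −1.88 to −0.74, limma adjusted p 0.0885). It passed the threshold in limma with the replicate block (adjusted p 0.0321), with a length and GC correction (adjusted p 0.0432) and with both (adjusted p 0.0359). It also passed without control 1 (limma adjusted p 0.0230), and was not called under the other settings tried. The fits that called it also called more of all genes than the main fit, as counted at the end. Same-numbered bulk libraries did not deviate together, so the block rests on the number alone. Over the fits with 1 library left out, its limma adjusted p ran from 0.0230 to 0.474. A readthrough transcript of NDUFC2 into KCTD14 is a separate symbol and was left out. NDUFA7, an accessory subunit of the peripheral arm (chr19:8308603-8321413, minus strand), had 54.8, 47.1 and 50.8 FPKM in bulk CRISPR, against 76.8, 140.7 and 108.1 FPKM in bulk control. The groups did not overlap, and the log2 fold change was −1.04 (SE 0.25, limma adjusted p 0.126).

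The assembly factor NDUFAF8, which is known to stabilise NDUFAF5 (chr17:81239311-81241310, plus strand), had 190.1, 192.2 and 163 FPKM in bulk CRISPR, against 226.8, 637 and 585 FPKM in bulk control. Its groups did not overlap, but control 1 lay far closer to the edited cells than controls 2 and 3 did, and the log2 fold change of −1.27 carried an SE of 0.39 (limma adjusted p 0.163). Over the 30 accessory subunits 24 were below 0 (35.3% of all genes), with a median of −0.34, and 6 of these passed an unadjusted p of 0.05 (6.93% of all genes were lower at that p). They were NDUFC2, NDUFA7, NDUFB7, NDUFB8, NDUFB11 and NDUFAB1, the mitochondrial acyl carrier protein. The 8 assembly factors split evenly, with 4 below 0 and a median of −0.02.

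The catalytic core of complex I had a median of −0.31, with 5 of 7 below 0. NDUFV1, which binds NADH and flavin, had 117, 114 and 109.5 FPKM in bulk CRISPR, against 129, 255 and 182 FPKM in bulk control (log2 fold change −0.67, SE 0.27, limma adjusted p 0.218). Its edited libraries all lay below the controls. NDUFS3 was at −0.41 (limma adjusted p 0.483) and NDUFS1 at 0.19 (limma adjusted p 0.758), both with overlapping groups.

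Complex II, which is also an enzyme of the citric acid cycle, varied little among the edited libraries. SDHA, its flavoprotein (chr5:218223-257082, plus strand), had 47.2, 47.5 and 47.2 FPKM in bulk CRISPR, against 55.6, 54.6 and 59.1 FPKM in bulk control. These groups did not overlap and both were tight, with means of 47.3 ± 0.156 and 56.4 ± 2.37 FPKM (SD, n = 3 each). The log2 fold change was small at −0.25 (SE 0.18 from the spread limma shares across genes, adjusted p 0.427). SDHB, the iron-sulphur subunit, had 172.3, 171.9 and 172.8 FPKM in bulk CRISPR, against 192.7, 343.9 and 217.9 FPKM in bulk control (−0.50, SE 0.26, limma adjusted p 0.300). SDHC and SDHD overlapped between the groups.

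Complex III held members at both ends. UQCRC1, the core 1 protein (chr3:48599002-48609646, minus strand), had 212.3, 220.7 and 198.5 FPKM in bulk CRISPR, against 157.0, 157.3 and 103.3 FPKM in bulk control. Every edited library was above every control, with a log2 fold change of 0.62 (SE 0.24, limma adjusted p 0.209). UQCRC1 was the 1 member higher at an unadjusted p under 0.05. UQCR11, a small subunit of the same complex, had 70.8, 69.5 and 65.9 FPKM in bulk CRISPR, against 89.8, 232 and 139 FPKM in bulk control (−1.04, SE 0.33, limma adjusted p 0.167). The Rieske protein UQCRFS1 was at −0.35 with overlapping groups (limma adjusted p 0.509). The other two members with all edited libraries above all controls were NDUFA4 and NDUFAF7, an assembly factor of complex I, named here because the count is small.

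Complex IV was the only complex whose bulk median was above 0 (0.13, with 10 of 14 above 0), still below the median of all genes (0.18). COX4I1 (−0.76, SE 0.30, limma adjusted p 0.214) lay below the controls in every edited library. COX5B was at −0.64 (limma adjusted p 0.368). COX5A, at 0.75 (SE 0.44, limma adjusted p 0.347), had 144.9, 128.1 and 115.6 FPKM in bulk CRISPR, against 112.7, 115.9 and 34.1 FPKM in bulk control. Control 3 lay far below the other libraries, and without it the log2 fold change was 0.17.

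Complex V had a median of −0.22, and its members also lay at both ends of the order. ATP5F1D, the delta subunit of the F1 central stalk (chr19:1241751-1244825, plus strand), had 94.2, 79.2 and 79.6 FPKM in bulk CRISPR, against 105.6, 287.8 and 255.4 FPKM in bulk control. The groups did not overlap, and control 1 was near the edited libraries (−1.23, SE 0.37, limma adjusted p 0.157). ATP5PD, subunit d of the peripheral stalk, had 255.8, 230.6 and 199.4 FPKM in bulk CRISPR, against 351.6, 787.9 and 383.4 FPKM in bulk control (−1.06, SE 0.34, limma adjusted p 0.171). The alpha and beta subunits did not share this position, with ATP5F1A (alpha) at 0.27 (limma adjusted p 0.534) and ATP5F1B (beta) at 0.22 (limma adjusted p 0.611).

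The highest log2 fold changes of the bulk comparison came from members that were low in control 3. ATP5MF, the f subunit, had 380.7, 274.9 and 284.9 FPKM in bulk CRISPR, against 354.3, 254.4 and 35.1 FPKM in bulk control (1.07, SE 0.75, limma adjusted p 0.416). ATP5PF, coupling factor 6 of the peripheral stalk, had 105.8, 90.5 and 85.6 FPKM in bulk CRISPR, against 93.5, 70.6 and 20.8 FPKM in bulk control (0.84, SE 0.49, limma adjusted p 0.339). NDUFB4, a membrane-arm subunit, had 160.2, 133.2 and 122.7 FPKM in bulk CRISPR, against 119.9, 128.0 and 34.1 FPKM in bulk control (0.76, SE 0.47, limma adjusted p 0.360). Together with COX5A these are 4 of the 5 highest members, UQCRC1 being the other.

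**Figure D4:**
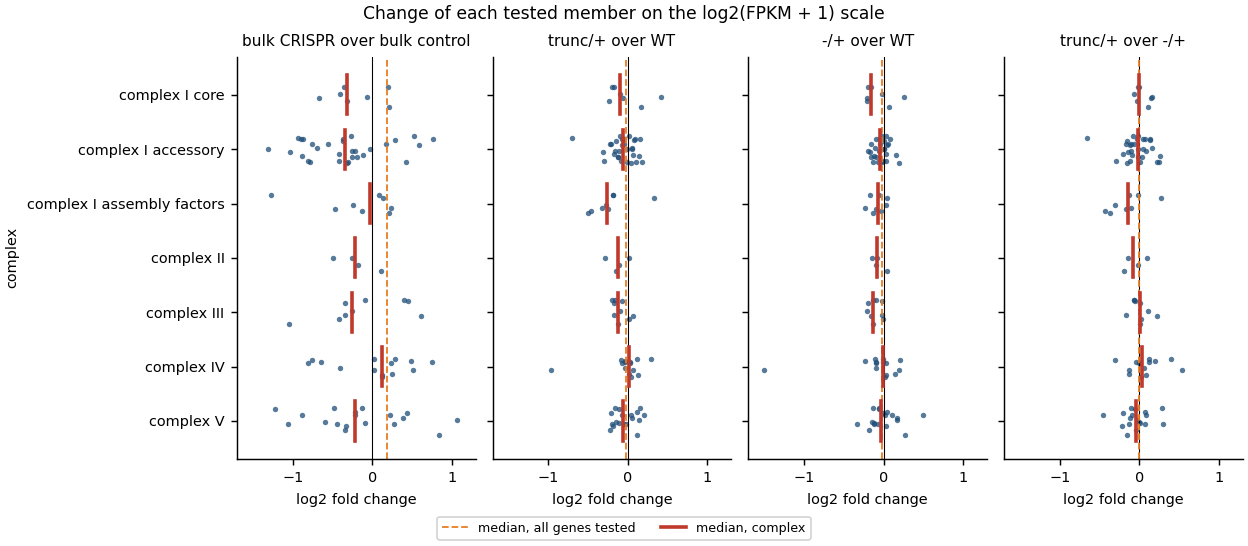
Log2 fold change of each tested member by complex in the 4 comparisons, on the log2(FPKM + 1) scale. Red bars are medians of the complexes and dashed lines the medians over all genes tested. Values spread from −1.31 to 1.07 in the bulk comparison, and in the 3 clone comparisons most lie within 0.5 of 0.

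Bulk values of members with and without a promoter motif are set side by side here. Of the 5 members with the NRF1 motif printed above, the median bulk log2 fold change was 0.11 (from −0.02 to 0.76), compared with −0.25 in the 71 tested members with a window and no such motif. The 10 members with the YY1 motif ran from −1.27 (NDUFAF8) to 0.84 (ATP5PF), with a median of −0.27, compared with −0.22 in the 66 without. Medians with and without the motif were −0.41 and −0.09 for ETS (23 and 53 members), and −0.14 and −0.22 for ERR (11 and 65 members). These are descriptions of the members, without a test. RNA of the factors was present to different degrees, with PPARGC1A (PGC1A) at or below 0.616 FPKM in every library, NRF1 between 1.61 and 7.26 FPKM and YY1 between 13.8 and 20.0 FPKM.

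Among the clones the respiratory chain genes varied little. Over all 8 clones, the highest library was within 1.5-fold of the lowest for 56 of 90 members (62.2%), compared with 23.6% of 12904 genes tested, and the median ratio of highest to lowest was 1.43 for members and 1.86 for all genes. ATP5PD had the smallest ratio, 1.18. Summed over the 96 members, FPKM ran from 11148 to 12535 in the 8 clones. The replicate SD (log2) of the median member was 0.16 in trunc/+ and 0.15 in -/+, against 0.12 in WT. Over all expressed genes it was 0.23, 0.22 and 0.15 in the same order. The genes compared were not matched to the members in level, and the part of level in these differences was not tested.

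A few members broke from this. The ratio exceeded 2 for 7 members, a count that was not taken over all genes. They were COX7B2 (67.9), NDUFA4L2 (5.64), NDUFA5 (4.06), ATP5F1A (3.73), NDUFAF8 (2.44), COX7A2 (2.09) and NDUFAF6 (2.03). COX7B2, a paralogue of COX7B (chr4:46734830-46909245, minus strand), had 16.2, 21.9 and 4.13 FPKM in trunc/+ and 0.373, 21.3 and 20.4 FPKM in -/+, against 22.0 and 25.3 FPKM in WT. It was nearly lost in -/+ 1 and low in trunc/+ 3, and the other 6 clones lay between 16.2 and 25.3 FPKM. NDUFA5, of the peripheral arm, had 3.67, 5.54 and 3.60 FPKM in trunc/+ and 5.88, 14.6 and 4.09 FPKM in -/+, against 3.71 and 14.1 FPKM in WT, so that 1 -/+ and 1 WT clone stood far above the rest. COX7A2 had 254.2, 130.9 and 131.4 FPKM in trunc/+ and 242.0, 135.2 and 129.2 FPKM in -/+, against 121.6 and 208.9 FPKM in WT. Here 1 clone of each genotype was high.

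ATP5F1A, the alpha subunit of ATP synthase, had 201.9, 319.5 and 221.2 FPKM in trunc/+ and 96.5, 218.6 and 359.5 FPKM in -/+, against 246.2 and 249.0 FPKM in WT. The low value of -/+ 1 depended on the measure. In the mean base coverage of the gene, scaled between libraries, -/+ 1 was at 80.5, within the range of the other clones (69.0 to 119). Its partner ATP5F1B, the catalytic beta subunit, stayed between 524.2 and 637.6 FPKM in all 8 clones.

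The comparison of trunc/+ with WT asked whether a truncated Z18 allele beside a normal one goes with other levels of these genes. With limma over 12904 genes, 0 of 90 members were called (0.00775% of all genes). At an unadjusted p under 0.05 there were 2 members (7.59% of all genes), both lower (4.3% of all genes, with 3.29% higher). The median log2 fold change was −0.08 for members and −0.02 for all genes, and 58 members were below 0 (52.9% of all genes). Trunc/+ clones lay above both WT clones for 4 members (10.6% of all genes) and below them for 18 (15.4% of all genes). For 84 of 90 members the 95% interval lay within −1 and 1 (70.9% of all genes).

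The 2 lower members were NDUFAF2 and NDUFA7. NDUFAF2, an assembly factor that holds a late intermediate of complex I (chr5:60945205-61153026, plus strand), had 45.5, 53.5 and 46.5 FPKM in trunc/+, against 66.3 and 71.7 FPKM in WT. The 3 trunc/+ clones were below both WT clones, and also below the -/+ clones at 58.2, 62.1 and 68.6 FPKM. The log2 fold change was −0.50 over WT (SE 0.13, 95% interval −0.81 to −0.19, limma adjusted p 0.552) and −0.37 over -/+ (SE 0.12, limma adjusted p 0.785). NDUFA7 had 52.3, 48.3 and 55.0 FPKM in trunc/+, against 62.5 and 66.7 FPKM in WT (−0.31, SE 0.12, limma adjusted p 0.652).

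The assembly factors of complex I had the lowest median of the complexes, −0.26, with 7 of 8 below 0. NDUFAF6 (−0.47, SE 0.29, limma adjusted p 0.713) and NDUFAF7 (−0.33, SE 0.18, limma adjusted p 0.698) were among the 5 lowest members, and NDUFAF3 was the exception at 0.32 (SE 0.21, limma adjusted p 0.722). The lowest members of all were COX7B2 (−0.96, SE 1.20) and NDUFA5 (−0.70, SE 0.58), whose clone values are given above and whose intervals include 0. The highest was NDUFV2, an iron-sulphur subunit of the NADH-oxidising module, with 149.4, 189.7 and 119.7 FPKM in trunc/+, against 108.9 and 117.0 FPKM in WT (0.41, SE 0.28, limma adjusted p 0.735). Its trunc/+ clones were above both WT clones, but trunc/+ 3 only narrowly. NDUFA4L2, a form of NDUFA4 known to be induced by low oxygen, was at 0.29 (limma adjusted p 0.816) and ATP5IF1, the inhibitor of ATP synthase, at 0.20 (limma adjusted p 0.746).

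The best known subunits stayed near 0 in trunc/+ over WT. SDHB was the lowest of them (−0.28, 95% interval −0.67 to 0.10), with 102.7, 135.1 and 121.8 FPKM in trunc/+, against 153.5 and 137.5 FPKM in WT. UQCRC1 was at 0.07 (−0.26 to 0.39), COX4I1 at −0.09 (−0.51 to 0.33), COX5A at −0.04 (−0.33 to 0.25) and ATP5F1B at −0.08 (−0.36 to 0.20), with the 95% interval in brackets. Changes larger than these bounds are outside the intervals of this fit.

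The -/+ clones were compared with the same 2 WT clones, so this comparison shares its reference with the one above. With limma, 0 of 90 members were called (0.00775% of 12904 genes). At an unadjusted p under 0.05, 1 member was higher (0.713% of all genes) and 0 were lower (1.11% of all genes). The median of members was −0.05 (−0.02 over all genes) and 61 were below 0 (53.2% of all genes). The -/+ clones lay above both WT clones for 4 members (6.16% of all genes) and below them for 10 (8.44% of all genes), and the 95% interval was within −1 and 1 for 87 members (75.8% of all genes).

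The 1 higher member was ATP5MC3, the least abundant of the genes for subunit c (chr2:175176258-175181710, minus strand). It had 53.7, 64.1 and 61.7 FPKM in -/+, against 43.8 and 40.2 FPKM in WT (0.50, SE 0.21, limma adjusted p 1). Each -/+ clone was above both WT clones. Trunc/+ clones had 38.1, 58.5 and 36.1 FPKM, spread on both sides of WT. ATP5PF was next at 0.27 (SE 0.13, limma adjusted p 1), followed by NDUFV2 (0.25, SE 0.28), COX4I1 (0.21, SE 0.18) and NDUFA4 (0.19, SE 0.13). COX7B2 was lowest, with an interval from −4.30 to 1.29 and a single low clone. ATP5F1A (−0.33, SE 0.48), COX7A2L (−0.24, SE 0.15) and NDUFAF7 (−0.23, SE 0.18) came after it. Among the best known subunits, SDHB, UQCRC1 and ATP5F1B had 95% intervals on both sides of 0. These ran from −0.53 to 0.25 for SDHB, from −0.48 to 0.17 for UQCRC1 and from −0.27 to 0.29 for ATP5F1B. All 9 members of complex III were below 0, but their values were small, from −0.21 to −0.01 with a median of −0.13, and UQCRC1 and UQCRH were the only 2 of them with non-overlapping groups.

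Between the heterozygous genotypes, trunc/+ over -/+, 0 of 90 members were called by limma (0% of 12904 genes). An unadjusted p under 0.05 was reached by 2 members (6.28% of all genes), both lower (3.16% of all genes, with 3.12% higher), which were NDUFAF2 and ATP5MC3 (−0.46, SE 0.19, limma adjusted p 0.788). The median was −0.02 for members and 0.00 for all genes, and 53 members were below 0 (50.2% of all genes). The lowest member was NDUFA5 (−0.65, SE 0.52) and the highest COX7B2 (0.54, SE 1.08), both spread widely among the clones as given above. NDUFA4L2 was next highest (0.40, SE 0.25, limma adjusted p 0.837), with 1.22, 1.22 and 1.42 FPKM in trunc/+, against 1.00, 0.252 and 1.09 FPKM in -/+. The groups did not overlap for 3 members higher (4.79% of all genes) and 3 lower (6.45% of all genes), and the 95% interval was within −1 and 1 for 86 members (77.5% of all genes).

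**Figure D5:**
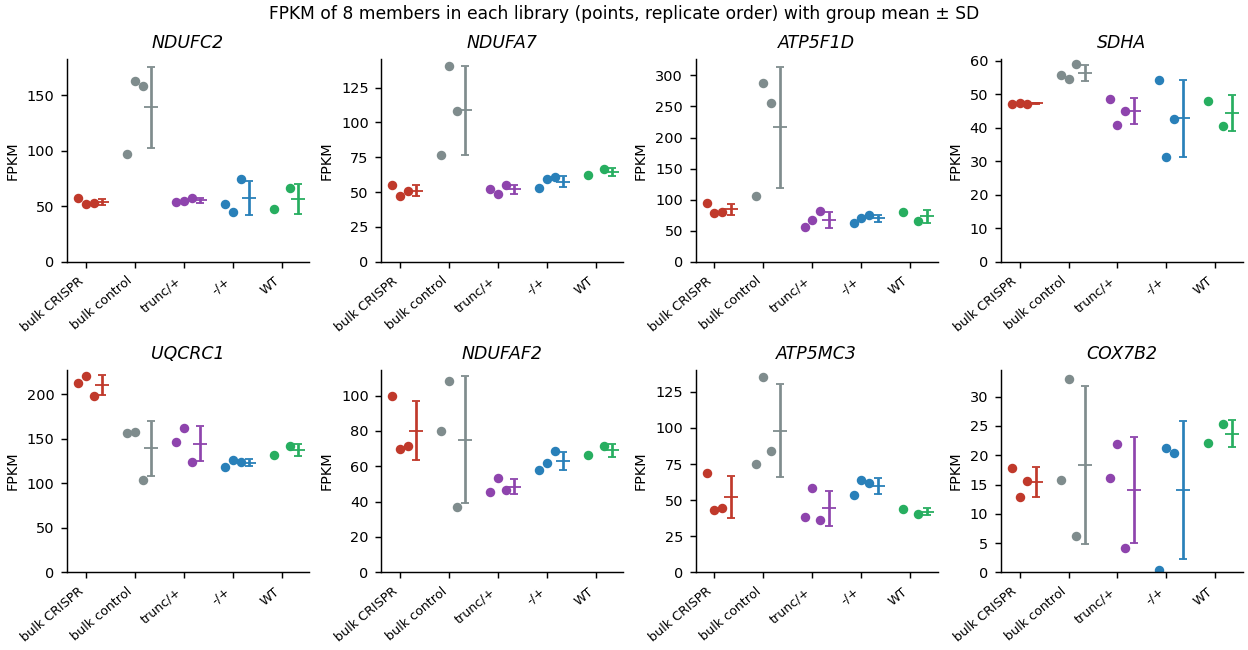
FPKM of 8 members in every library by group, with bulk CRISPR left of bulk control and trunc/+ and -/+ left of WT. Points are libraries, and the bars with whiskers beside them are group means ± SD. NDUFC2, NDUFA7 and ATP5F1D are lower in all 3 bulk CRISPR than in all 3 bulk control libraries, and UQCRC1 is higher. Among the clones, NDUFAF2 is lowest in the 3 trunc/+ clones, and COX7B2 is at 0.373 FPKM in 1 -/+ clone.

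Whether the bulk difference and the trunc/+ difference differ was tested as an interaction over all 14 libraries. Of 90 members 0 were called by limma (0.0446% of 13439 genes), and 9 had an unadjusted p under 0.05 (8.85% of all genes), of which NDUFAF7 was higher (6.14% of all genes) and 8 were lower (2.71% of all genes). Below 0 lay 56 members (36% of all genes). NDUFC2 was lowest (−1.30, SE 0.35, limma adjusted p 0.465). Its clones had 53.4, 54.9 and 57.8 FPKM in trunc/+ and 52.4, 45.1 and 74.3 FPKM in -/+, against 47.2 and 66.05 FPKM in WT. All 8 clones lay below the lowest bulk control (96.9 FPKM), and they spread on both sides of the bulk CRISPR libraries. ATP5F1D (−1.12, SE 0.46, limma adjusted p 0.529) and ATP5PD (−1.01, SE 0.38, limma adjusted p 0.514) were also among the 8. Without bulk control 1 the interaction was called for 3 members, ATP5F1D, NDUFB11 and NDUFC2, in a fit that called 1.78% of all genes.

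Bulk populations and clones differ in preparation, so the effects of cloning and of preparation cannot be told apart. Side by side, all 3 bulk CRISPR libraries were above all 8 clones for 40 of 90 members (14.4% of 12023 expressed genes) and below them for 1 (13.8%). Control 1 was above all clones for 65 members (21.9% of expressed genes) and control 2 for 76 (21.4%), whereas control 3 was above for 35 (24.7%) and below for 27 (38.4%). Of the 21 members that were lower in every edited library than in every control, all 3 controls were above all 8 clones for 18, and the edited libraries were for 9. Shares of all genes under the same condition were not taken, so these counts describe the members only. The median log2 difference between the mean of bulk CRISPR and that of the clones was 0.39 for members, 0.30 for all genes under 1000 bases and 0.01 for all genes.

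Other genes of mitochondrial function were read in the same fits, and none was called in any comparison. An unadjusted p under 0.05 was reached upwards by 14% of all genes and downwards by 6.93% in the bulk comparison, 3.29% and 4.3% in trunc/+ over WT, and 0.713% and 1.11% in -/+ over WT, against which the counts here are to be read. Of 49 assembly factors outside the name rule, 32 were below 0 in bulk CRISPR over bulk control (median −0.19), and of the 49, 1 was higher and 8 were lower at that p. In trunc/+ over WT their median was −0.12, with 1 higher and 5 lower. The 11 other subunits and electron carriers, cytochrome c among them, had a bulk median of −0.16, and the 78 mitochondrial ribosomal protein genes one of −0.21, of which 0 were higher and 10 lower at the same p. The 14 enzymes of the citric acid cycle, which feeds the chain with NADH and succinate, had a bulk median of 0.32, with 4 higher and 1 lower at that p. The 19 glycolysis genes had one of 0.34, with 3 higher and 1 lower. The 79 cytosolic ribosomal protein genes had medians of −0.16 in the bulk comparison, −0.18 in trunc/+ over WT and −0.13 in -/+ over WT, with 0 higher and 3, 8 and 0 lower. In trunc/+ over WT these medians were −0.14 for the citric acid cycle and 0.25 for glycolysis, and in -/+ over WT they were 0.03 and 0.00. The 13 tested regulators of mitochondrial biogenesis had medians of −0.04, −0.16 and −0.08 in the bulk, trunc/+ and -/+ comparisons, and 0, 2 and 1 of them were lower at an unadjusted p under 0.05.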

How the data were processed

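RNA was measured in 14 libraries of A375 cells, grouped by the genotype label. Reads were trimmed with cutadapt 4.6 and mapped to hg38 per the submitters' processing notes. No source used here names the aligner for these gene files. The deposited FPKM and TPM values were made by the authors with StringTie over RefSeq genes, 1 library per file. The files also hold the deposited base coverage of each gene (a signal not scaled between libraries). Reads per gene were not used here, so the depth behind a gene is unknown. Library sizes are the deposited count of aligned fragments. No column was left out (0).

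After summing rows of the same symbol, tests were run in limma 3.58.1 (with a mean-variance trend, R 4.3.3) on log2(FPKM + 1), two-sided, with Benjamini-Hochberg adjustment over all genes tested and a threshold of 0.05. Fold changes are on that scale, which understates low genes. A gene entered the bulk fit (6 libraries) with 1 FPKM or more in 3 of them, and the clone fit (8 clones, 1 shared spread) or the interaction fit (14 libraries) with that level in 2. Named were the members past the threshold, the 5 highest and 5 lowest in each comparison, the best known subunits of each complex and paralogues, with those whose groups separated counted, and members singled out by clone ratio or by a leave-one-out call were named after their values were seen. The values of 1 member are not reported here. The members and lists were chosen with earlier results of these data known. As the labels do not say that bulk replicates were separate cultures, p-values cover only the spread seen among the libraries, part of which may be technical. Transcript length and GC content came from GENCODE release 44 MANE Select transcripts. Alternatives were a pseudocount of 0.1, no filter, quantile and median-of-ratios scaling, TPM, a replicate block and each library left out. Scaled coverage, a correction for length and GC content, bulk control 1 alone, clone fits without -/+, and counts without each library were chosen after seeing the data. The fits were tested on simulated data, in which each gene varied independently of the others. In the bulk comparison (12114 genes) 20% of genes changed by 1 on the log2 scale and 67% of those changed by 2 were called with the right sign, and in trunc/+ over WT (12904 genes) 43% and 77% were. Unchanged genes called in these simulations were 11 in the bulk comparison and 26 in trunc/+ over WT, a larger share of all calls than the threshold of 0.05 allows. Processed pseudogenes and near-identical copies make the division of reads uncertain for several small subunits.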

Additional observations from a re-analysis of the deposited data

How the results depend on the processing

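No result changed direction past the threshold. Members called in bulk CRISPR over bulk control were 0 as reported and 0 to 7 with 1 library left out (7 without bulk control 1, all lower), and those called in the interaction 0 to 3. A length and GC correction called 2 members (NDUFC2 lower, NDUFA12 higher), and the replicate block 1 (NDUFC2, adjusted p 0.0321), as did both together (1, adjusted p 0.0359). Same-numbered bulk libraries did not deviate together (r of −0.169, −0.216 and 0.176), and in clones r ran from −0.551 to 0.509, so the samples share only a number. The block moved the genes called in the bulk comparison to 220, against 42 without it. Other settings gave 16 (no filter), 20 (pseudocount 0.1), 26 (TPM), 73 (quantile), 274 (length and GC), 206 (length and GC with the block) and 107 (bulk control 1 alone), and 4 to 1327 with a library left out. The cause was not tested. The bulk median of members ran from −0.53 to 0.09 with a library left out and from −0.44 to −0.12 under the other alternatives. Median-of-ratios scaling moved the median of all genes to 0.01, against 0.18 as deposited, with 67 of 90 members below 0, and quantile scaling to 0.03, with 54 below 0. In trunc/+ over WT, -/+ over WT and trunc/+ over -/+, 0 members were called under every alternative. With 2 or 3 libraries a group and the spread of the bulk controls, 2-fold changes were mostly not called in the simulated bulk comparison. On the simulated data, the bulk fit called 20% of genes changed by 1 on the log2 scale (2-fold) with the right sign. It called 67% of those changed by 2. The simulation lacked the deviations that many genes shared in bulk controls 2 and 3, so its rates may not hold for these data. Recovery for the members alone was not tested.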
